A study of Homo sapiens with 4 samples.

Results

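The 9 genes described here encode 6 secreted complement proteins (C1R, C1S, C3, C5, CFB and CFI) and 3 complement regulators of the cell membrane (CD46, CD55 and CD59). They were found by Entrez identifier in the deposited gene tables, and all 9 had a row in both pairs of tables, among 17963 genes listed in either pair. The tables come from RNA sequencing of 4 libraries labelled HepG2, the name of a cell line derived from a human liver tumour. The vector library came from cells given the vector alone, as far as its label says, and the library labelled JFK from cells transfected with FLAG-tagged JFK, an older name of FBXO42. The control siRNA library received a control siRNA whose sequence is not described, and the ING5 siRNA library an siRNA against ING5, a subunit of histone acetyltransferase complexes. Each treated library is compared with its own control, as the plasmid pair (vector and JFK labels) and the siRNA pair. There was 1 library per group, all under this 1 cell line label, and no dose, time after transfection or batch is given in the sources used here. No difference therefore has a replicate check, no p-value is given, and every interval is at 95% and covers counting error only. Intervals of a ratio or share of reads are exact (Clopper-Pearson), and those of a difference between log2 ratios are normal approximations.

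Complement is a cascade of plasma proteases made mostly by the liver. C1r and C1s are the proteases of the C1 complex, which opens the classical pathway once C1q has bound antibody. Factor B supplies the protease of the alternative pathway, C3 is the protein on which all pathways converge, and cleavage of C5 starts assembly of the membrane attack complex. Host cells are shielded by factor I, a plasma protease that needs a cofactor such as CD46, by CD55, which dissociates the convertases, and by CD59, which blocks the last step of pore assembly.

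The targeted genes were read first. ING5 had 144 counts in control siRNA and 81 in ING5 siRNA, a log2 ratio of −0.81 (interval −1.23 to −0.41). FBXO42 had 116 counts in the vector library and 115 in the library labelled JFK, a log2 ratio of 0.01 (−0.37 to 0.40). The second library did not show the transcript level that its label names, so it is called the library labelled JFK throughout, and directions drawn from it carry that limit.

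The libraries held 7179365, 7237325, 9196979 and 9030075 reads on genes, given for vector first, then the library labelled JFK, then control siRNA and last ING5 siRNA. Of 12 hepatocyte markers none reached 20 counts in any library, and ALB, TTR and TF were without a value in either pair of tables. These values go against the liver cell label, so the cells are called by that label only. The summed level of the markers was 1.55 to 3.502 CPM (the count scaled to the library total) for hepatocytes and 50.9 to 185 CPM for leukocytes, where CD68 gave most reads and the defining gene PTPRC had 1 to 8 counts. It was 12.5 to 164 CPM for endothelial cells, where CDH5 gave most, and 76.3 to 96.1 CPM for fibroblasts. Of the other endothelial markers PECAM1 had 16 to 42.78 counts, VWF 1 to 12, TEK 0 to 3 and CLDN5 1. KDR had 0.74 and 0 in the plasmid pair and no value in the siRNA pair. Of the fibroblast markers THY1 had 0 and 2 counts in the plasmid pair and no value in the siRNA pair. COL1A2 had no value in the plasmid pair and 2 and 0 counts in the siRNA pair. In bulk libraries fewer cells of a type and less RNA per cell cannot be told apart.

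Per transcript length, the membrane regulators CD55 and CD46 ranked first and second among the 9 genes in all 4 libraries, and C3 came next. The deposited FPKM of CD55 was 396.53 for vector and 419.34 for the library labelled JFK, and its RPKM was 402 in control siRNA and 457 in ING5 siRNA. CD46 followed at 234.56, 158.8, 331 and 222, in the same order of libraries, and C3 at 85.02, 86.51, 89.5 and 108. CD55 therefore stood 1.22 times above CD46 per length in control siRNA (interval 1.18 to 1.25) and 2.65 times in the library labelled JFK (2.55 to 2.75). C5 and CFI closed the order in every library, at 0.32 to 1.90, and these neighbours did not differ beyond counting error in any of them. In vector C1R and C1S, at 70.66 and 67.16, were also within counting error of each other, as were CFB and C1R in the library labelled JFK.

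**Figure D1:**
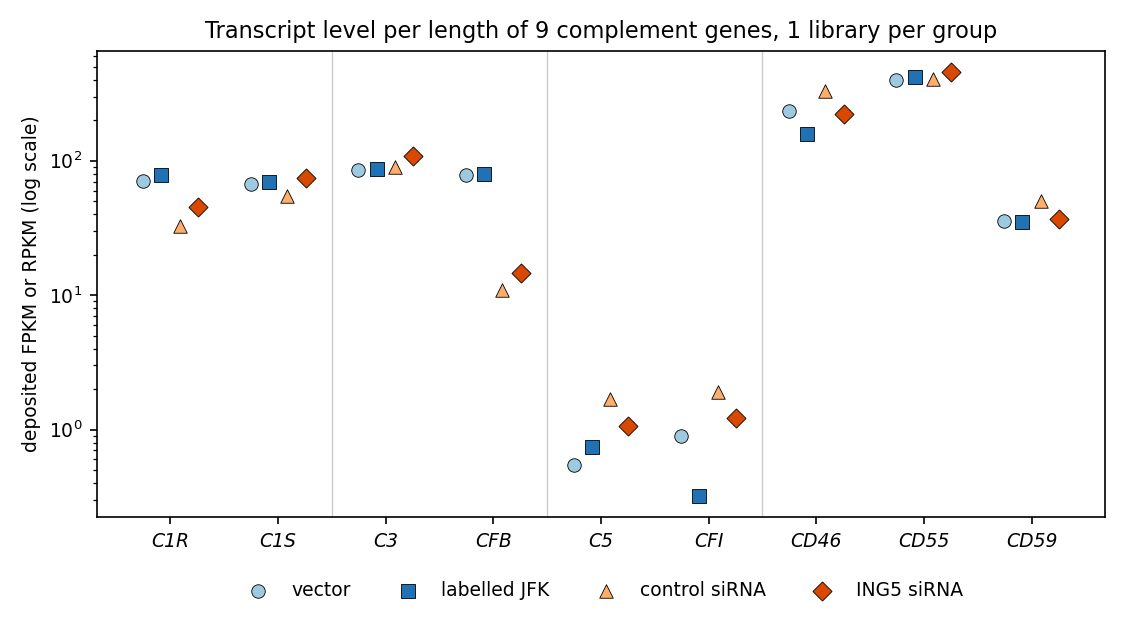
Deposited FPKM (vector and the library labelled JFK) or RPKM (control siRNA and ING5 siRNA) of each gene on a log axis, 1 point per library. CD55, CD46 and C3 lead in every library, C5 and CFI lie near or below 2, and CFB is at 77.8 and 79.25 in the plasmid pair against 10.97 and 14.69 in the siRNA pair.

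CD55 and CD46 were the members with the most reads, and the membrane regulators did not stand on the same side of their controls. CD46, the cofactor for cleavage by factor I, had 5569 counts in the vector library and 3798 in the library labelled JFK. It had 10353 counts in control siRNA and 7071 in ING5 siRNA. It stood lower than its own control in both pairs by nearly the same factor, at 69.4% of vector (log2 ratio −0.53, interval −0.59 to −0.47) and at 69.1% of control siRNA (−0.53, interval −0.58 to −0.49). The log2 ratios of the pairs differed by −0.01 (−0.08 to 0.07). Of the 1570 genes whose mean normalised count was 1000 or more, 18 had a lower log2 ratio in the plasmid pair, against 88 of 2227 in the siRNA pair.

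CD46 levels also varied between the controls. Scaled to depth they were 776 CPM in vector, 525 in the library labelled JFK, 1126 in control siRNA and 783 in ING5 siRNA. The control siRNA library was the highest and the library labelled JFK the lowest, while vector and ING5 siRNA stood close together. The controls differed by 1.45-fold, and the treated libraries from their own controls by 1.44-fold and 1.45-fold. The plasmid and siRNA tables were made separately, with different gene lengths for CD46 (3281.4 and 3402 bases), so counting and culture cannot be told apart there. In the ING5 siRNA table the CD46 count is 2.67% above the 6887 that its deposited RPKM implies, and by RPKM the log2 ratio was −0.57.

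CD55, the decay-accelerating factor, had 8072 and 8658 counts in the plasmid pair and 10845 and 12204 in the siRNA pair. It stood slightly above control in both, with log2 ratios of 0.13 (0.08 to 0.17) and 0.19 (0.15 to 0.22). CD59, the inhibitor of pore assembly, had 1976.96 and 1968.33 expected counts in the plasmid pair (0.02, interval −0.07 to 0.11) and 3612 and 2604 counts in the siRNA pair (−0.46, interval −0.53 to −0.38). The CD59 ratio thus differed between the pairs by −0.47 (−0.59 to −0.36). Its counts in the plasmid tables are not whole and C11orf91 overlaps it in RefSeq, so part of its reads may be shared.

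Shares of reads within a library do not depend on the scaling. Of the reads on the 3 membrane regulators, CD46 took 35.7% in the vector library (34.9 to 36.4) and 26.3% in the library labelled JFK (25.6 to 27.1). It took 41.7% in control siRNA (41.1 to 42.3) and 32.3% in ING5 siRNA (31.7 to 32.9). The CD55 share was higher in each treated library, at 60.0% against 51.7% and 55.8% against 43.7%. CD59 took 12.7% and 13.6% in the plasmid pair and 14.6% and 11.9% in the siRNA pair. Relative to CD55, CD46 was lower by a log2 difference of −0.65 (−0.73 to −0.58) in the library labelled JFK and −0.72 (−0.78 to −0.66) in ING5 siRNA. Relative to CD59 the difference was −0.55 (−0.65 to −0.44) in the first pair and −0.08 (−0.16 to 0.01) in the second.

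**Figure D2:**
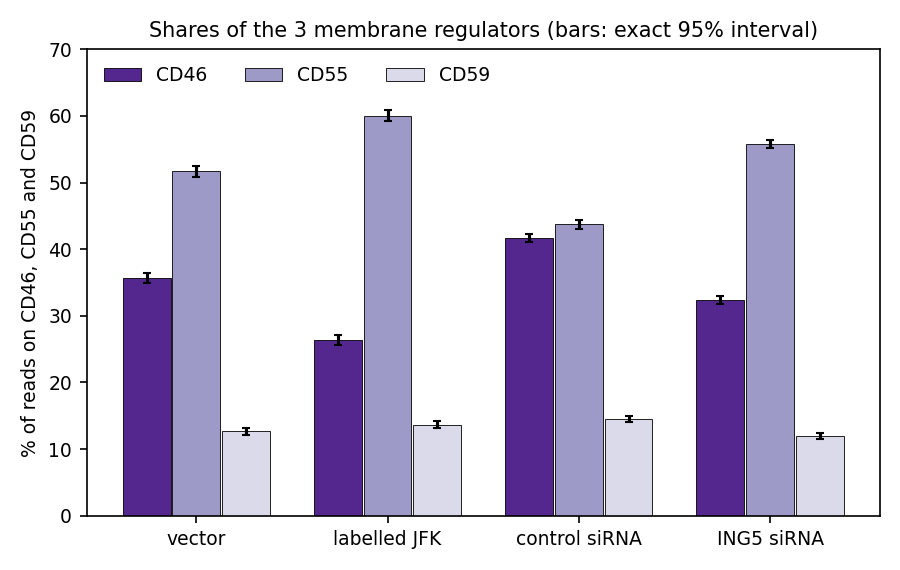
Percent of the reads on CD46, CD55 and CD59 that fell on each, per library, with exact 95% intervals as error bars. The CD46 bar is lower and the CD55 bar higher in the library labelled JFK than in vector and in ING5 siRNA than in control siRNA.

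The bases before the start of CD46 and CD59 are shown because CD46 stood lower in both pairs and CD59 in the siRNA pair, each with over 1000 counts in every library. They are from the RefSeq promoter table of GRCh38.p14, a later build than the GRCh37 named for the deposited tables, and leave out annotated untranslated bases. The CD46 stretch is chr1:207751788-207752037 on the plus strand and the CD59 stretch chr11:33736492-33736729 on the minus strand, both written 5′ to 3′, with matches to the motifs searched in capitals.
CD46: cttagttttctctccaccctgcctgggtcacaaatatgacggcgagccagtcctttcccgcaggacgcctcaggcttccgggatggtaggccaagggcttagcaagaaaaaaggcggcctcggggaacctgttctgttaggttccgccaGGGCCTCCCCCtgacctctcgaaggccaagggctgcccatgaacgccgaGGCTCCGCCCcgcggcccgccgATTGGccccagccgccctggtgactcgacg
CD59: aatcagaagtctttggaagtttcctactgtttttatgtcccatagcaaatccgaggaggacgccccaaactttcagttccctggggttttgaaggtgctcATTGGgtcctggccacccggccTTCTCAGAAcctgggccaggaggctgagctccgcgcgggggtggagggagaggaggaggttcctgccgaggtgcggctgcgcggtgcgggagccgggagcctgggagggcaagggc
The motifs, searched on both strands of the 250 bases before the start, were the kappaB motif (GGG and CC with any 5 bases between), the STAT motif TTCNNNGAA, the interferon response motif (GAAA, any 2 bases, GAAA), the C/EBP motif TTGNNCAA and CCAAT. CD46 held 3 overlapping kappaB matches between 101 and 91 bases before the start, another at 52 to 43, and CCAAT on the minus strand at 30 to 26. The 3 overlapping matches are readings of 1 stretch: bases 101 to 92 matched on both strands, and bases 100 to 91 on the minus strand. CD59 held a STAT match at 128 to 120 and CCAAT on the minus strand at 150 to 146. Neither match in CD59 overlaps another motif, and in CD46 only kappaB matches overlap each other. Of 27305 promoters 53.7% held the kappaB motif, 6.76% the STAT motif, 3.07% the interferon response motif, 5.05% the C/EBP motif and 33.0% CCAAT. Of the 7 members with an entry, 4 held the kappaB motif, 2 the STAT motif, 1 the interferon response motif, 0 the C/EBP motif and 3 CCAAT. CFB, whose window lies within an annotated untranslated region and is not printed, held the interferon response match at 140 to 131, a STAT match at 92 to 84, and kappaB matches. C1S and C3 had no entry. A match is a description of the letters and not a binding site.

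The proteases that open the classical pathway stood higher under ING5 siRNA. C1R had 754 counts in control siRNA and 1043 in ING5 siRNA, 1.40-fold (log2 ratio 0.48, interval 0.35 to 0.62). C1S had 1435 and 1922, 1.35-fold (0.44, interval 0.34 to 0.54). In the plasmid pair C1R had 1285 and 1434 counts (0.18, interval 0.07 to 0.29) and C1S 1371 and 1445 (0.10, interval −0.01 to 0.21). The siRNA ratio exceeded that of the plasmid pair by 0.30 (0.13 to 0.47) for C1R and 0.34 (0.19 to 0.48) for C1S.

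C1r and C1s act as a pair in the C1 complex, and the balance of their transcripts between them held within each pair. C1R took 48.4% of their joint reads in the vector library (46.5 to 50.3) and 49.8% in the library labelled JFK (48.0 to 51.7). It took 34.4% in control siRNA (32.5 to 36.5) and 35.2% in ING5 siRNA (33.5 to 36.9). The intervals overlapped within pairs and not between them. The difference between the pairs came mostly with C1R, at 179 CPM in vector and 82.0 in control siRNA, against 191 and 156 for C1S.

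C3 and CFB, which together form the alternative pathway convertase, also stood higher under ING5 siRNA. C3 had 4202 counts in control siRNA and 5000 in ING5 siRNA, 1.20-fold (0.27, interval 0.21 to 0.33). CFB had 267 and 354, 1.34-fold (0.42, interval 0.19 to 0.66). In the plasmid pair C3 had 3145 and 3243 counts (0.07, interval −0.003 to 0.14) and CFB 1483 and 1531 (0.07, interval −0.03 to 0.17), both within counting error of no difference. The siRNA ratio exceeded that of the plasmid pair by 0.20 (0.11 to 0.29) for C3 and 0.35 (0.10 to 0.60) for CFB.

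CFB was the member whose level differed most between the pairs of tables. It had 207 CPM in the vector library and 212 in the library labelled JFK, but 29.03 in control siRNA and 39.2 in ING5 siRNA. The 7.12-fold gap between the controls is far above the 1.34-fold of the siRNA pair. C3 did not share it, at 438 CPM in vector and 457 in control siRNA. The gap was not particular to CFB, since CFD of the same pathway had 46.1 and 7.18 CPM in these controls, and the regulator gene VTN 300.3 and 40.9. CFB therefore took 32.0% of the joint reads of CFB and C3 in the vector library and 32.1% in the library labelled JFK, against 5.97% and 6.61% in the siRNA pair. The deposited gene lengths of CFB and of C3 are the same in both pairs of tables. These tables were made separately, so counting and culture cannot be told apart for CFB, CFD or VTN.

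**Figure D3:**
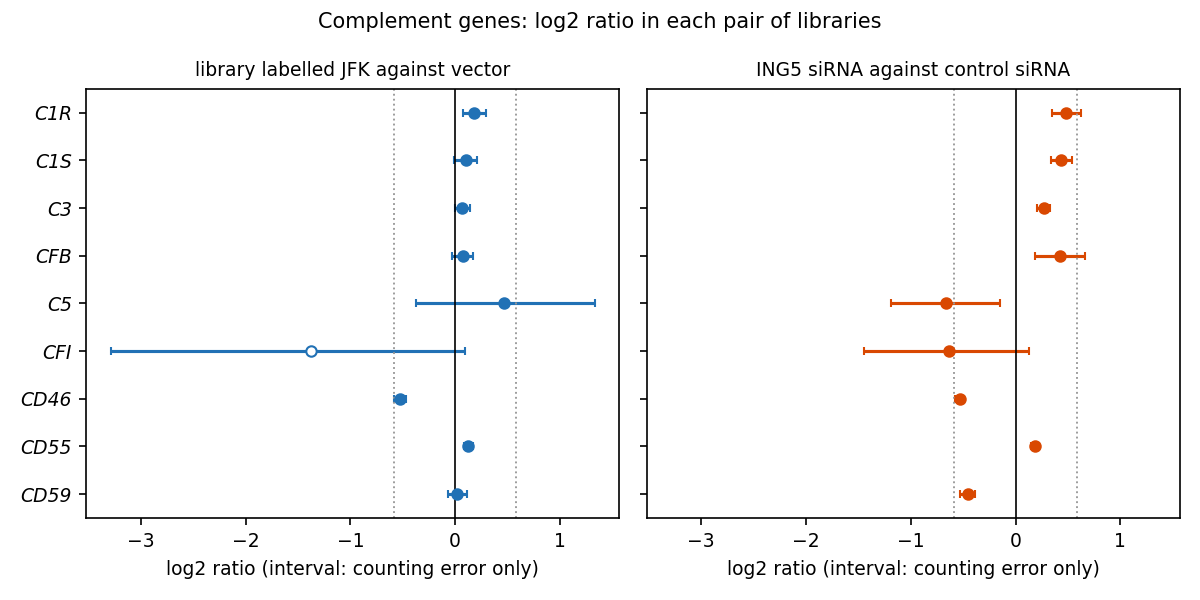
Log2 ratio of each gene in the library labelled JFK against vector (left) and in ING5 siRNA against control siRNA (right), with exact 95% counting intervals; dotted lines mark 1.5-fold and the open point a mean normalised count under 20. C1R, C1S, C3 and CFB lie at 0.27 to 0.48 on the right and at 0.07 to 0.18 on the left, while CD46 is at −0.53 in both.

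C5 and CFI had few reads. C5, the source of the membrane attack complex, had 22 and 30 counts in the plasmid pair (0.46, interval −0.37 to 1.34) and 85 and 53 in the siRNA pair (−0.66, interval −1.19 to −0.15). CFI, the protease that inactivates C3b, had 14 and 5 counts in the plasmid pair, which is under the minimum used here, and 38 and 24 in the siRNA pair (−0.64, interval −1.45 to 0.13). At this depth a CFI difference was not detectable in either pair.

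Measured means that the mean normalised count reached 20, where normalised counts are scaled by trimmed mean of M-values. In the plasmid pair 8 of the 9 genes were measured and 0 were at least 1.5-fold higher or lower, where 1.5% of 12107 measured genes were higher and 2.07% lower. By the interval, 2 of the 8 lay wholly above 0 and 1 wholly below, against 14.3% and 11.2% of all measured genes (25.5% either way), and 0 were 2-fold apart (background 0.57%). The median log2 ratio of the 8 was 0.09, beside 0.00 for all measured genes. In the siRNA pair all 9 were measured, 0 were 1.5-fold higher (background 4.01%) and 2 were lower, C5 and CFI (background 4.4%). By the interval 5 of the 9 lay above 0 and 3 below, against 18.3% and 20.6% of measured genes (39% either way), and 0 were 2-fold apart (background 1.46%). The median was 0.19, beside −0.01 for all genes. The interval narrows with reads, so shares by the interval depend on the depth of the genes compared. Of the 8 genes measured in both pairs, C1R and CD55 lay above 0 in both and CD46 below 0 in both. Of 11148 genes measured in both pairs, 2.84% lay above 0 in both and 3.94% below 0 in both.

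**Figure D4:**
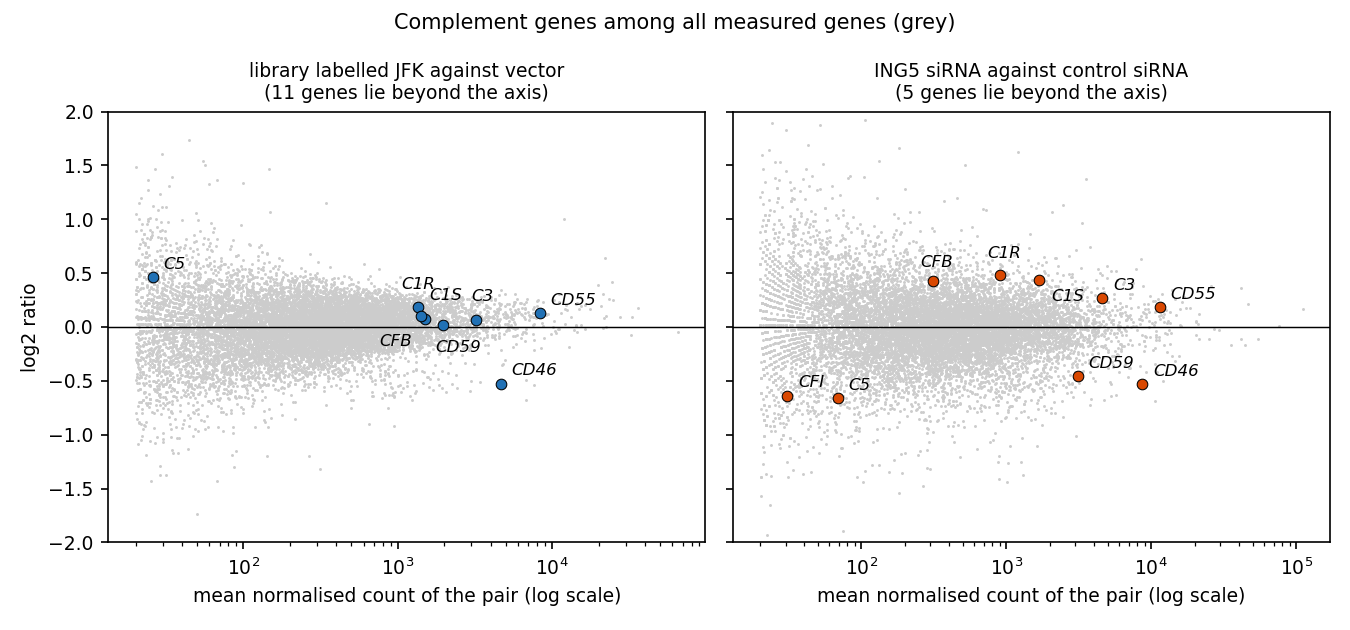
Log2 ratio against mean normalised count (log axis) for all measured genes in grey and the complement genes in colour, for each pair of libraries. CD46 lies toward the lower edge of the cloud in both panels, and in the siRNA pair C1R, C1S, CFB and C3 lie above 0, at 0.27 to 0.48.

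Of 50 other complement genes 13 were measured in the plasmid pair and 8 in the siRNA pair. At least 1.5-fold apart were 3 of the 13 (background 3.57%) and 0 of the 8 (background 8.41%). The 3 were C4A, C4B and C4BPA, so the count rests mostly on a pair of near-identical copies. Components of the early cascade were few. The subunit genes of C1q were without a value in either pair, and C2 had 7 to 23 counts. C4A and C4B, near-identical copies, had 97.32 and 195.85 expected counts in vector and 201.15 and 106.85 in the library labelled JFK. The direction of each is uncertain, since reads may be divided between them, and their sum was 293 against 308 (0.10, interval −0.14 to 0.33). In the siRNA pair C4A had 0 counts in control siRNA and 2 in ING5 siRNA, and C4B was without a value. CFD, the protease that cleaves factor B, had 331 and 388 counts in the plasmid pair (0.25, interval 0.04 to 0.47) and 66 and 61 in the siRNA pair (−0.10, interval −0.62 to 0.43). No gene of the terminal pathway other than C5 was measured.

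Soluble regulators held most reads outside the 9 genes. C4BPB, the beta chain of the C4b-binding protein, had 2308 counts in the vector library and 2743 in the library labelled JFK (0.27, interval 0.19 to 0.35), but 1805 in control siRNA and 1290 in ING5 siRNA (−0.47, interval −0.57 to −0.36). Its partner C4BPA, the alpha chain, had 92 and 59 counts (−0.61, interval −1.11 to −0.13) and 346 and 318 (−0.11, interval −0.33 to 0.12). The beta chain thus took 96.2% and 97.9% of their joint reads in the plasmid pair, and 83.9% and 80.2% in the siRNA pair. Clusterin and vitronectin, which bind the forming pore, stood above control in both pairs. CLU had 1289 and 1560 counts (0.30, interval 0.19 to 0.41) and 1289 and 1491 (0.23, interval 0.12 to 0.33). VTN had 2156 and 2598 (0.29, interval 0.21 to 0.38) and 376 and 489 (0.39, interval 0.20 to 0.59).

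**Figure D5:**
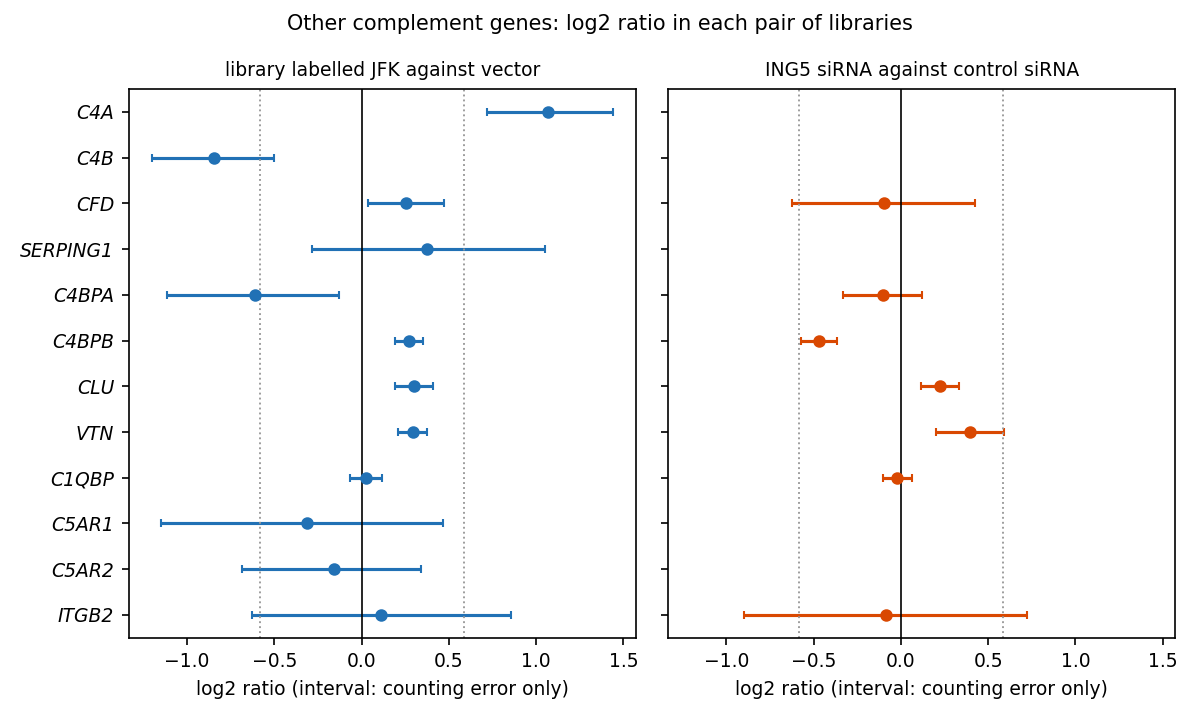
Log2 ratio with exact 95% counting intervals for the other complement genes described in the text, in each pair of libraries; genes under a mean normalised count of 20 have no point. CLU and VTN lie above 0 in both panels, whereas C4BPB is at 0.27 on the left and −0.47 on the right.

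The other regulators and receptors described here did not differ beyond counting error. SERPING1, the inhibitor of C1r and C1s, had 36 and 46 counts in the plasmid pair (0.37, interval −0.28 to 1.05) and was under the minimum in the siRNA pair. C1QBP, a mitochondrial protein that also binds C1q, lay at 0.02 (−0.07 to 0.12) and −0.02 (−0.11 to 0.06). The anaphylatoxin receptor gene C5AR2 had 70.53 and 62 counts (−0.16), C5AR1 32.17 and 25.33 (−0.32), and ITGB2, the beta chain of complement receptors 3 and 4, 32 and 34 (0.11). ITGB2 lay at −0.09 in the siRNA pair, where both C5a receptor genes were under the minimum.

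Genes known to control complement transcription in liver were read beside these. In the siRNA pair 12 of 16 were measured, and 6 lay wholly above 0 and 1 below (background 18.3% and 20.6%), with a median of 0.24. The cytokine gene IL6 had 12 counts in control siRNA and 58 in ING5 siRNA (2.24, interval 1.38 to 3.32). STAT3, which carries its signal, had 3002 and 3661 (0.30, interval 0.23 to 0.37), CEBPD 245 and 337 (0.48, interval 0.23 to 0.72) and the feedback inhibitor SOCS3 144 and 199 (0.48, interval 0.17 to 0.80). The receptor chain gene IL6ST had 2022 and 1635 (−0.29, interval −0.39 to −0.20). In the plasmid pair 12 were measured, with 4 above 0, 2 below (background 14.3% and 11.2%) and a median of 0.03. There IL6 lay at 0.68 (0.33 to 1.04), while STAT3 lay at −0.04 and SOCS3 at 0.00. Whether these genes and the complement genes are linked was not tested. Markers of other cell types differed in the same pair. CDH5 of the endothelial list had 224 counts in control siRNA and 87 in ING5 siRNA (−1.34, interval −1.72 to −0.98), and CD68 of the leukocyte list lay at −0.32 (−0.50 to −0.13). Of 5 fibroblast markers measured, DCN had 74 and 37 counts (−0.97, interval −1.59 to −0.40), LUM lay at −0.33 (−0.58 to −0.07) and COL3A1 at 0.36 (0.13 to 0.59), while the intervals of the other two held 0. In the plasmid pair LYZ of the leukocyte list lay at −0.64 (−1.10 to −0.21), while CD68 lay at 0.10 (−0.02 to 0.22). CDH5 lay there at 0.21 (0.09 to 0.33), while PECAM1 of the endothelial list lay at −0.03 (−0.70 to 0.61). The part of these markers in the results was not tested.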

How the data were processed

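Per the labels' protocols, RNA of HepG2 cells was extracted with Trizol and read on an Illumina HiSeq. FastQC, fastp, STAR and DESeq2 with GRCh37 and hg19 are named in the submitters' processing notes, without roles. Versions, the counter and its strand setting are not stated there. Per the file headers, the tables hold FPKM (plasmid tables), RPKM (siRNA tables) and an expression value, all as deposited. From its values, the deposited expression value is read as an expected count in the plasmid tables (68.6% and 69.0% of values whole) and as a count in the siRNA tables. Genes were matched by Entrez identifier to RefSeq symbols (16900 of 17010 and 16771 of 16860 rows). NADK2 and SMG1P3, listed more than once, and IL32, with a blank count, were left out.

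Counts were scaled with trimmed mean of M-values factors (trims 0.3 and 0.05) using scipy 1.17.1, numpy 2.4.6 and pandas 2.3.3 under Python 3.11.15, and 0.5 was added before log2. Expected counts were rounded for the intervals. Differences between log2 ratios have normal-approximation intervals from the read counts. The scaling and the counting intervals of the log2 ratios were tested on simulated counts that vary by counting error only. Such counts hold no variation between libraries, and the intervals of differences between log2 ratios were not simulated. With 1 library per group no count test was run. The named genes were the 9 members, the measured genes of the wider complement lists, FBXO42 and ING5; some results are not reported here. The members and lists were chosen with earlier results of these data known. The comparison with genes of at least 1000 mean counts, the read shares and the genes singled out from the transcription, acute phase and anchor lists were chosen after values were seen. Alternatives were other scalings, FPKM or RPKM, another added value, other minimums, rounding, 2-fold, and leaving out genes whose count and FPKM or RPKM disagree (by over 0.001 counts in the siRNA tables, 10% in the plasmid tables). No molecular identifiers are described, so reads are not counted as independent molecules. Plots were drawn with matplotlib 3.10.9.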

Additional observations from a re-analysis of the deposited data

How the results depend on the processing

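Of 132 recomputed log2 ratios of single members, 131 stayed within the counting interval of the reported value and 0 changed sign with an interval that excluded 0. The exception was CD55 in the plasmid pair, at 0.08 by FPKM. Another minimum or the leaving out of genes cannot alter the ratio of a gene that remains. Rounding cannot alter the whole counts of the siRNA pair. Agreement under those settings was fixed in advance, so the 131 overstate how far the ratios were probed. Across all alternatives CD46 ranged from −0.56 to −0.53 in the plasmid pair and from −0.57 to −0.52 in the siRNA pair. CD46 has no value in the siRNA pair once genes whose count and RPKM disagree are left out, and the median of the remaining members was then 0.23. Of 70 recomputed counts and medians, 61 stayed within 1.5 times the reported count or within the counting interval of the median. Without the minimum, 1 member (CFI) was 1.5-fold lower in the plasmid pair, and 14 and 13 other complement genes were 1.5-fold apart in the plasmid and siRNA pairs. At 2-fold, 1 other complement gene was apart in the plasmid pair and 0 members were lower in the siRNA pair. With 5 added 1 member was lower there, and at a mean of at least 100 it was 0, with a median of 0.27, since C5 and CFI drop out. No paired analysis was possible because each group has 1 library. A count of 3 reads corresponds to 0.418, 0.415, 0.326 and 0.332 CPM (vector first, then the library labelled JFK, then control and last ING5 siRNA), so depth limits C5 and CFI.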

Other observations

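CD55 and CD59 are held on the membrane by a glycosylphosphatidylinositol anchor, whereas CD46 spans it. Of 28 genes of anchor synthesis and remodelling, 28 were measured in the plasmid pair, where 6 lay wholly above 0 and 8 below, and the median was 0.02. In the siRNA pair 27 were measured, 1 lay above 0 and 8 below, and the median was −0.11. The shares of all measured genes were 14.3% above and 11.2% below in the first pair and 18.3% and 20.6% in the second. PIGA, of the first step, had 317 and 231 counts in the plasmid pair (−0.43, interval −0.68 to −0.18) and 599 and 641 in the siRNA pair (0.11, interval −0.05 to 0.28). PGAP1, which remodels the anchor, had 64 and 41.35 counts (−0.60, interval −1.22 to −0.03) and 203 and 138 (−0.54, interval −0.86 to −0.22). PGAP6 of the same list went the other way, at 0.27 (0.08 to 0.47) in the plasmid pair and 0.53 (0.18 to 0.88) in the siRNA pair.

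Of 17 acute phase genes of the liver, 4 were measured in the plasmid pair and 1 in the siRNA pair. The ceruloplasmin gene CP had 1355 and 1265 counts (−0.07, interval −0.19 to 0.04) and 1206 and 1412 (0.24, interval 0.13 to 0.36). The serum amyloid gene SAA1, under the minimum in the siRNA pair, had 2 counts in control siRNA and 21 in ING5 siRNA (interval of the log2 ratio 1.38 to 6.55), and 65.89 and 92.51 in the plasmid pair (0.51, interval 0.05 to 0.997).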
